A study of Drosophila melanogaster with 3 samples.

Results

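Of the 6469 peaks in the deposited optimal set of an anti-GFP chromatin immunoprecipitation (ChIP-seq) experiment, 769 lay between genes but close to one. The set had been thresholded by the irreproducible discovery rate (IDR), a measure of how well ranks of calls recur between replicates. It held the same intervals as the top 6469 calls on pooled reads, so single peaks need not recur in every replicate. A peak was taken when its summit lay in no annotated gene body, more than 500 bp and at most 5000 bp from the nearest transcript start of any gene. These 769 peaks made up 11.9% of the set (Wilson 95% interval 11.1% to 12.7%). The animals were whole white prepupae of the Drosophila melanogaster strain CG8632-GFP, males and females pooled, of unknown age. The strain is a transgenic line that stably expresses CG8632, the gene now named ZnT49B, with eGFP fused to its C terminus. All 3 biological replicates carried the transgene, so there was 1 group and no condition to compare. Control samples were not analysed here, the promoter that drives the fusion is not given in the sources used here, and signal from different tissues of the animal cannot be told apart.

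Sequence just outside a gene can hold enhancers and other elements that bind transcription factors and raise or lower transcription of a neighbouring gene, and in the compact fly genome many such elements lie a short way upstream of a start. The nearest gene is a positional label, since an element can act on a gene farther away. ZnT49B belongs to the ZnT family of zinc transporters, which move zinc across membranes. White prepupae have just formed the puparium after a pulse of the steroid hormone ecdysone, which sets off metamorphosis.

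The sequences at the 8 strongest of these peaks are printed first, since later results on base content and motifs refer to them. Each runs 150 bp around the summit, 5′ to 3′ on the plus strand of the Release 6 genome (dm6, RefSeq sequence), and is named by the nearest gene. Capitals mark matches, on either strand, to any of 16 short consensus sequences searched, of which these 8 windows held TAATTA, bound by many homeodomain factors, AGATAAG, the preferred site of factors such as Serpent, and ATATATAT.
CG31668 (chr2L:2202321-2202470): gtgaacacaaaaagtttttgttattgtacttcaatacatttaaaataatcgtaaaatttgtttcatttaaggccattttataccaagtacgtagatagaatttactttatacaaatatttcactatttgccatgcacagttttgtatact
CG43245 (chr3L:10776486-10776635): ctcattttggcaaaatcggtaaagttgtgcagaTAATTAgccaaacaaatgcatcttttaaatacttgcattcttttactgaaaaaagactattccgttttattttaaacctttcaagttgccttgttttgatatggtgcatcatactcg
CG17746 (chr3L:3241036-3241185): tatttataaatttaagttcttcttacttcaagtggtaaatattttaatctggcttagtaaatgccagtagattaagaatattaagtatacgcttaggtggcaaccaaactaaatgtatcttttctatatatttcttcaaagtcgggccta
fz (chr3L:14272507-14272656): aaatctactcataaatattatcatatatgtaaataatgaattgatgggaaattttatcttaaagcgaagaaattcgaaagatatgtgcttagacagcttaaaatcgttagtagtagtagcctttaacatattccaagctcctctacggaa
ds (chr2L:715490-715639): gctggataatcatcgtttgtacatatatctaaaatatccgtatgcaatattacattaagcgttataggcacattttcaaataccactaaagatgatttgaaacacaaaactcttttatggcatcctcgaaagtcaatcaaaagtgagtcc
CG6149 (chr3L:11431399-11431548): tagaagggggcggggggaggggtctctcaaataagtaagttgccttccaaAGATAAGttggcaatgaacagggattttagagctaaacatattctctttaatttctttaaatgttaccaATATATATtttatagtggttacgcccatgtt
E(spl)malpha-BFM (chr3R:26009022-26009171): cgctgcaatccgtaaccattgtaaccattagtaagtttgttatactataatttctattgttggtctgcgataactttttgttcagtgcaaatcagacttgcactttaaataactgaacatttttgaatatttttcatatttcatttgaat
COX7AL2 (chr2L:2199282-2199431): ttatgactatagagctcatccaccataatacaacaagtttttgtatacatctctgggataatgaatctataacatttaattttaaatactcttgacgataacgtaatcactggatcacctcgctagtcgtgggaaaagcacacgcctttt
Of these 8 windows, 6 held no match. Their GC content ran from 25.3% to 37.3%. A further 3 windows, marked in the same way, were chosen because they hold ATATATAT (upstream of E(spl)m2-BFM), a run of at least 8 adenines (near CG43389) or GAGAGAG on the minus strand (near lncRNA:CR44713). The E(spl)m2-BFM window also holds TAATTA and a run of adenines.
E(spl)m2-BFM (chr3R:26017947-26018096): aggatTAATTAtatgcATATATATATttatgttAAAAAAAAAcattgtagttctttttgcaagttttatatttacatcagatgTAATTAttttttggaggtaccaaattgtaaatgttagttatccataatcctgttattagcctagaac
CG43389 (chr3L:3246471-3246620): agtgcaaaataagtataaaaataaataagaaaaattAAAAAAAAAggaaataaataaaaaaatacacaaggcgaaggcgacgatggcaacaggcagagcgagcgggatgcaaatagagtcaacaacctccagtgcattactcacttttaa
lncRNA:CR44713 (chr3L:11246145-11246294): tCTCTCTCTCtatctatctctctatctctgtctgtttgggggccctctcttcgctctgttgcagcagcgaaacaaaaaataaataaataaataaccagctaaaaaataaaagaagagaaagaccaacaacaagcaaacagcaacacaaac

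The authors deposited a signal value with every peak, on a scale not given in the sources used here. The depth of sequencing is unknown too, so the only error attached to a signal is the spread over replicates, which may include differences in scale between libraries. For each peak the signal in a replicate was that of the overlapping call with the nearest summit. The strongest peak, rank 9 in the set, lay at chr2L:2202185-2202604, 3770 bp downstream of the start of CG31668. Its signals were 914, 579 and 737 in replicates 1, 2 and 3. A second strong peak stood in the same gap between genes, 1445 bp upstream of COX7AL2, a cytochrome c oxidase subunit gene by name, with signals of 311, 236 and 281 in replicates 1, 2 and 3. At both, replicate 1 was highest and replicate 2 lowest, and the weakest replicate of the CG31668 peak exceeded every replicate of the COX7AL2 peak.

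The peak at chr3L:10776386-10776744, 4636 bp downstream of the start of CG43245, ranked 39 with signals of 553, 515 and 492 in replicates 1, 2 and 3. It differed little between replicates and was above every replicate of the peaks ranked below it. Further down were peaks near genes of planar cell polarity. One lay 1761 bp upstream of fz, which encodes the Wnt receptor Frizzled, with signals of 396, 206 and 340, and another 582 bp upstream of ds, which encodes the atypical cadherin Dachsous, with 357, 243 and 309. Replicate 2 was again the lowest at both. The peak 1796 bp upstream of E(spl)malpha-BFM, a Notch target in the Enhancer of split complex, had 327, 222 and 349, with replicate 3 highest.

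**Figure D1:**
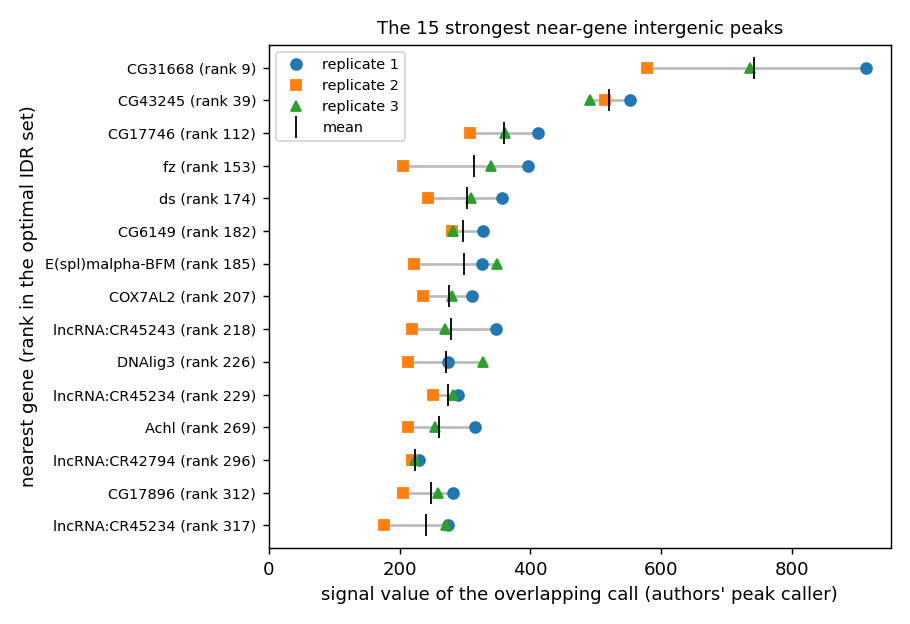
Signal value of the 15 strongest intergenic peaks near genes in each replicate (x axis, units of the authors' peak caller); points are replicates, vertical ticks their means, and the y axis gives the nearest gene with its rank in the IDR set. The CG31668 peak exceeds every other peak in each replicate, and replicate 2 is the lowest in most peaks.

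The other strong peaks had CG17746, CG6149, DNAlig3 (a DNA ligase gene by name), lncRNA:CR45243, lncRNA:CR45234, Achl, lncRNA:CR42794 and CG17896 as nearest genes. The 15 strongest belonged to 14 genes, 11 of them lay upstream of the nearest start, and each was ranked 544 or better in every replicate. The lncRNA:CR45234 gene was nearest to 4 peaks, ranked from 229 down, in the 10.5 kb gap that ends at hid, a gene that triggers apoptosis. At the strongest of these the signals were 290, 251 and 281, at the next 273, 176 and 272. All 4 were among the strongest 6469 calls of all 3 replicates. The peak next to them, whose nearest start is that of hid itself, lay 5028 bp away and so just outside the distance limit.

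Peaks just inside the lower limit had nearest genes CG7080 (503 bp), lncRNA:CR45638 (506 bp) and lncRNA:CR43648 (506 bp), with pooled signals of 154, 405 and 173. Just outside it lay peaks of dysf (490 bp), lncRNA:CR46352 (489 bp) and CG11899 (488 bp), with pooled signals of 154, 179 and 206. At the upper limit, peaks of CG13481 (4999 bp), lncRNA:CR45700 (4961 bp) and tRNA:Ile-TAT-1-1 (4958 bp) were inside, with pooled signals of 231, 109 and 114. Those of Gr93b (5001 bp), hid (5028 bp) and the tal locus (5074 bp) were outside, with 444, 568 and 151. The signals on either side of each limit overlapped.

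Most of these peaks lay upstream of the nearest gene. Of the 769, 552 (71.8%, Wilson 95% interval 68.5% to 74.8%) were upstream of the nearest start and 217 were downstream of it, beyond the end of the gene. The upstream share was 70.7%, 73.0% and 71.8% among the strongest 6469 calls of replicates 1, 2 and 3. Upstream sequence is itself more common, 64.1% of the 16.4 Mb that meets the distance rule, so counts were also set against length. Upstream sequence held 51.5 ± 2.63 calls per Mb and downstream sequence 36.2 ± 1.45 (mean ± SD, n = 3 replicates). The ratio was 1.35, 1.51 and 1.42 in replicates 1, 2 and 3. It was above 1 in 3 of 3 replicates (two-sided exact sign-flip permutation p = 0.25, the smallest that 3 replicates allow, here and in every such test below).

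The difference between sides was not present at every distance. From 500 to 1000 bp, upstream sequence held 64.0 ± 2.56 calls per Mb and downstream sequence 67.2 ± 3.06 (n = 3), which overlap. From 1000 to 2000 bp the values were 61.1 ± 3.31 upstream and 37.8 ± 4.03 downstream, with every replicate higher upstream. From 4000 to 5000 bp they were 41.8 ± 4.48 and 30.4 ± 3.03. An intergenic peak just downstream of a start needs a gene that ends soon after that start. The median length of the nearest gene was 712 bp for downstream peaks against 2139 bp for upstream ones. The median distance to the nearest start was 1683 bp (quartiles 1000 and 3134 bp).

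**Figure D2:**
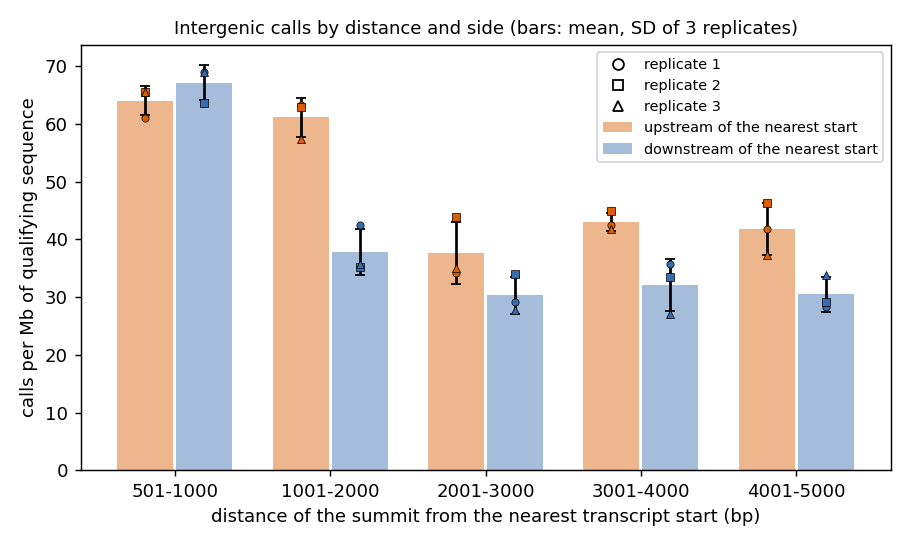
Intergenic calls per Mb of sequence meeting the rule (y axis) by distance from the nearest transcript start (x axis, bp), upstream in orange and downstream in blue. Bars are means over the 3 replicates, error bars SD and points single replicates; between 1000 and 2000 bp the upstream bar is at 61.1 and the downstream bar at 37.8.

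The orientation of both flanking genes gave a smaller spread. Gaps between divergent genes, whose starts face each other, held 231 peaks at 51.5 ± 1.50 calls per Mb (n = 3). Gaps between genes in tandem held 404 at 45.4 ± 3.48, and gaps between convergent genes, whose ends face each other, 132 at 40.4 ± 1.08. Divergent and convergent gaps did not overlap between replicates, while tandem gaps lay between them.

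Signal was lower than at starts and close to that of other peaks. The median pooled signal was 177 (quartiles 131 and 283). In replicates 1, 2 and 3 the median was 70.0, 44.97 and 66.3. The peaks within 500 bp of a start had 78.7, 54.3 and 80.8, gene-body peaks farther from a start 73.9, 46.2 and 67.7, and intergenic peaks more than 5000 bp from any start 69.1, 42.3 and 59.8. The ratio to start peaks was 0.846 ± 0.0378 and below 1 in 3 of 3 replicates (exact sign-flip permutation p = 0.25). The ratio to gene-body peaks was 0.967 ± 0.0165 and below 1 in 3 of 3 replicates (exact permutation p = 0.25). It was 0.948, 0.974 and 0.979 in replicates 1, 2 and 3. With replicate 2 left out and only peaks among the strongest calls of both replicates 1 and 3 kept, it was 1.02. The ratio to the remote intergenic peaks was 1.06 ± 0.0470, above 1 in 3 of 3 replicates (exact permutation p = 0.25). Among the 500 strongest peaks of the set were 4.94% of the near-gene intergenic peaks and 12.1% of start peaks.

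Replicate support was close to that of the whole set. All 3 replicates had 487 of the 769 peaks (63.3%, Wilson 95% interval 59.9% to 66.7%) among their strongest 6469 calls, against a background of 65.4% for all IDR peaks. A further 185 peaks were among those calls in 2 replicates, 92 in 1 and 5 in none. Since the IDR set holds the same intervals as the top 6469 calls on the pooled reads, these counts describe the set and are no independent check of it. At any rank, 763 peaks had an overlapping call in all 3 replicates. The 5 with no support lay nearest to lncRNA:CR45564, lncRNA:CR45626, TSG101, asRNA:CR44267 and lncRNA:CR45659. Replicate 2 had the lowest signal in 573 peaks, replicate 1 the highest in 457 and replicate 3 in 283. Peaks close together could match the same replicate call, as 28, 34 and 22 of the 769 did in replicates 1, 2 and 3, so their signals are not separate measurements.

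**Figure D3:**
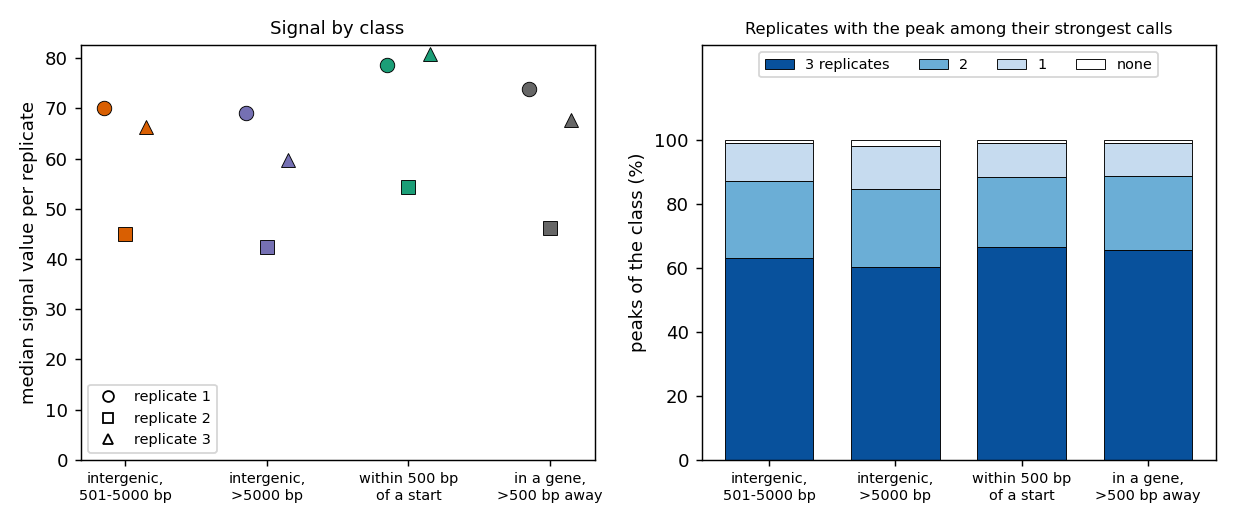
Left, median signal value (y axis, units of the authors' peak caller) of each class of IDR peak in each replicate; right, share of each class (y axis, %) found among the strongest 6469 calls of 3, 2, 1 or no replicates. Near-gene intergenic peaks have medians of 70.0, 44.97 and 66.3 in replicates 1 to 3, and 63.3% are in all 3.

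Chromosome arm 3L carried more of these peaks than its share of sequence. It held 270 of the 769 (35.1%) and 21.4% of the sequence meeting the rule. Its density was 75.5 ± 2.49 calls per Mb (n = 3). The other large arms ran from 33.7 ± 1.72 on 2R to 41.5 ± 2.14 on 3R. The ratio of 3L to the rest of the genome was 2.06, 1.91 and 1.99 in replicates 1, 2 and 3. For remote intergenic peaks it was 1.63 ± 0.0847, for start peaks 1.06 ± 0.0142 and for gene-body peaks 1.03 ± 0.0307. The near-gene ratio divided by the ratio of start peaks was 1.88 ± 0.0460, and divided by that of remote intergenic peaks 1.22 ± 0.0591, above 1 in 3 of 3 replicates each (exact permutation p = 0.25).

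**Figure D4:**
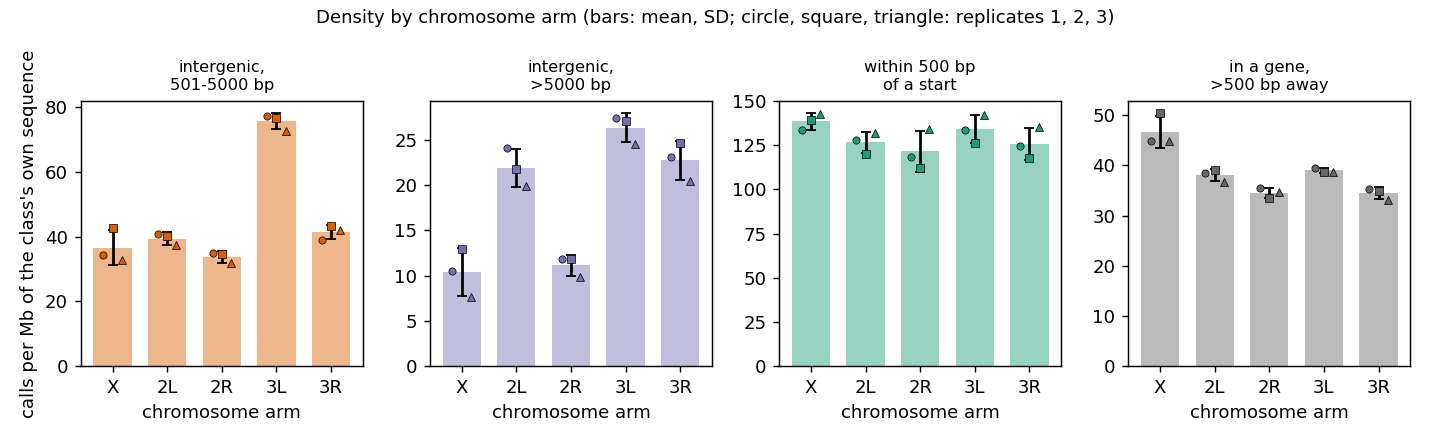
Calls per Mb of each class's own sequence (y axis, a separate scale from 0 in each panel) by chromosome arm (x axis); bars are means over the 3 replicates, error bars SD, and circles, squares and triangles replicates 1, 2 and 3. Arm 3L stands out among near-gene intergenic calls, at 75.5 per Mb, and its bar is near the others among start calls.

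On 3L, peaks were found in more gaps and in greater number per gap. Of the gaps with sequence meeting the rule, 11.7% ± 0.272 (n = 3) held a call on 3L and 6.60% ± 0.263 to 7.80% ± 0.276 on the other large arms. An occupied gap held 1.72 peaks on 3L and 1.27 to 1.46 on those arms. Over all chromosomes, 403 of the 769 peaks (52.4%) shared their gap with another, and 26 of the 53 gaps with at least 3 peaks were on 3L. Peaks whose intervals overlap were counted separately in all counts per gap and per gene, so these are not counts of distinct sites. Joined where they overlap, the 769 intervals made 722 regions. The 2 peaks in the gap next to fz, for example, had summits 0.199 kb apart. The gap between CG17154 and vers on 3L, 26.9 kb long, held 8 peaks, the most of any gap, and 4 of them were among the strongest calls of all 3 replicates. The gap between CG18404 and lncRNA:CR46113 on 3R held 6, and all 6 were.

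Of the 16 genes nearest to at least 4 peaks, 9 were long non-coding RNA genes, 5 protein-coding and 2 tRNA genes. Among all 18277 annotated genes, 2448 are long non-coding or antisense RNA genes, 13968 protein-coding and 295 tRNA genes. Of the 16, 11 were on 3L, where these peaks were denser. lncRNA:CR45737 was nearest to 7 peaks on both of its sides, in gaps that end at Ids and at sty, which encodes Sprouty, an inhibitor of receptor tyrosine kinase signalling. Its strongest peak, 936 bp downstream of the start, had signals of 231, 169 and 154 in replicates 1, 2 and 3. vers and lncRNA:CR43883 were nearest to 5 each. Another 13 genes were nearest to 4 each, of which lncRNA:CR45234, lncRNA:CR45643 and lncRNA:CR44761 had the highest summed pooled signal. The strongest of the vers peaks, 4457 bp upstream, had 141, 106 and 189, with replicate 3 highest. The gene shd, which encodes the Cytochrome P450 enzyme that makes the active form of ecdysone, was also nearest to 4 peaks. Their signals ran from 77.4 to 119 in replicate 1, from 24.8 to 48.6 in replicate 2 and from 21.9 to 93.7 in replicate 3.

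In all, 564 genes were the nearest gene of at least 1 peak, 3.09% of the 18277 annotated genes. Protein-coding genes were nearest to 461 peaks (59.9%) and make up 76.4% of genes. Non-coding RNA genes were nearest to 273 (35.5%) and make up 18.0%. Shares of genes do not allow for the length of sequence next to each kind. Long non-coding and antisense RNA genes have 4.50 of the 16.4 Mb of sequence meeting the rule. They had 58.7 ± 1.43 calls per Mb of it (n = 3), against 46.0 ± 1.86 for all genes together. Some nearest genes had a peak at their own start as well, 124 of 564 (22.0%), against 14.7% of all genes and 11.8% of the 7664 genes with sequence meeting the rule. Within replicates 1, 2 and 3 the shares of nearest genes were 23.7%, 20.4% and 25.7%, and those of genes with such sequence 11.5%, 11.3% and 12.7%. The ratio was 1.96 ± 0.145 (n = 3), above 1 in 3 of 3 replicates (exact permutation p = 0.25).

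Several genes of ecdysone response, patterning and signalling were nearest to a peak. Of 30 ecdysone response genes, 5 were (16.7%, Wilson 95% interval 7.34% to 33.6%), against 3.09% of all genes. They were Eip75B, a nuclear receptor gene that ecdysone induces early, ImpE1 and ImpE2, which are ecdysone-inducible, and the transcription factor genes Eip93F and chinmo. The Eip75B peak, 529 bp upstream, had signals of 113, 45.4 and 58.6 in replicates 1, 2 and 3. The stronger of the ImpE2 peaks, 1473 bp upstream, had 72.6, 42.8 and 82.2. Only 2 of the 8 peaks of this list were among the strongest calls of all 3 replicates. The number of such calls was 3, 9 and 7 in replicates 1, 2 and 3, so replicate 1 had the fewest. Their density was 165 ± 79.4 calls per Mb (n = 3), against 46.0 ± 1.86 for all genes together. Eip75B, ImpE1 and ImpE2 are on 3L, where the density next to all genes was 75.5 ± 2.49, while Eip93F and chinmo are on other arms. Densities of gene lists, above and below, were not adjusted for chromosome arm. Of these 30 genes, 19 had sequence meeting the rule, against 7664 of all 18277. The shares of genes, here and for the lists below, therefore rest on unlike denominators.

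Zinc finger, forkhead and other patterning factors gave 9 of 58 genes (15.5%), namely foxo, lola, bin, srp, croc, slp2, sob, esg and salm. The foxo peak, 3340 bp upstream of the gene for the forkhead factor of insulin signalling, had 269, 165 and 231 in replicates 1, 2 and 3. The lola peak had 90.4, 115.01 and 185, so replicate 1 was lowest there. Signalling ligands and receptors gave 8 of 58 (13.8%), namely fz, fz3, upd3, robo2, ths, NetB, hh and ptc. These lists had 55.3 ± 9.05 and 97.1 ± 14.3 calls per Mb of their own qualifying sequence (n = 3), against 46.0 ± 1.86 for all genes together.

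Homeodomain genes gave 5 of 83 (6.02%), with ct and Optix the strongest, and their 26.5 ± 2.41 calls per Mb were below the value for all genes together in 3 of 3 replicates. The stronger ct peak, 3755 bp upstream, had signals of 203, 45.1 and 184, with replicate 2 far below the others. Cuticle protein genes had a peak at their own start in only 2 of 121, against 14.7% of all genes. As nearest genes they gave 9 of 121 (7.44%), with 72.9 ± 19.9 calls per Mb (n = 3). Cpr72Eb and Cpr72Ea, neighbours on 3L, had the strongest. The Cpr72Eb peak had 199, 141 and 198, and the Cpr72Ea peak 210, 103 and 128. Chemoreceptor genes, led by Gr93d and Gr93b, gave 6 of 185 (3.24%), close to the share over all genes. Their density of 33.9 ± 2.02 calls per Mb (n = 3) was below the 46.0 ± 1.86 for all genes together. Of the 185, 106 had sequence meeting the rule. Of 93 ribosomal protein genes, 57 had a peak at their own start, against 14.7% of all genes, and only RpL22-like was the nearest gene of a near-gene intergenic peak. Sequence meeting the rule was next to only 30 of the 93 ribosomal protein genes and to 98 of the 121 cuticle genes.

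Transfer RNA genes were nearest to 30 peaks at 17 of 295 genes (5.76%), with 105 ± 12.6 calls per Mb, led by tRNA:Lys-CTT-1-11 and tRNA:Gly-GCC-1-4. Long non-coding and antisense RNA genes gave 175 of 2448 (7.15%), with 58.7 ± 1.43 calls per Mb. Single genes were in the lists of nuclear receptors (Eip75B), insulin and TOR signalling (foxo), heat shock proteins and co-chaperones (stv) and microRNA genes (mir-9385). In that order these were 1 of 21 (4.76%), 1 of 28 (3.57%), 1 of 24 (4.17%) and 1 of 260 (0.385%), against 3.09% of all genes. Sequence meeting the rule was next to 10, 12, 15 and 28 genes of these lists. None of 39 bHLH factor genes was nearest to a peak, but only 23 of them had sequence meeting the rule, and over those the count allows a share of up to 13.0%. None of 24 zinc transporter and metallothionein genes was, the tagged gene ZnT49B among them, with 8 that had such sequence (up to 37.5%). None of 20 antimicrobial peptide genes was, with 10 that had it (up to 30%). Genes of a list share gaps and peaks, and these counts were not tested.

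The summits were poor in G and C. Within 100 bp of the summit, GC content averaged 33.4%, against 41.0% in windows 1000 bp to either side that overlap no IDR peak and 40.7% in all sequence meeting the rule. Among the strongest calls of each replicate the difference between summit and flank was -7.56 ± 0.335 percentage points (n = 3), negative in 3 of 3 replicates (exact permutation p = 0.25). In 50 bp windows the minimum stood at the summit, at 30.5%. Shoulders of 45.9% and 46.3% stood 300 bp to its left and right. The summits of remote intergenic peaks (33.6%), start peaks (34.7%) and gene-body peaks (34.3%) were alike in this, so low GC content at the summit was shared by all classes.

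**Figure D5:**
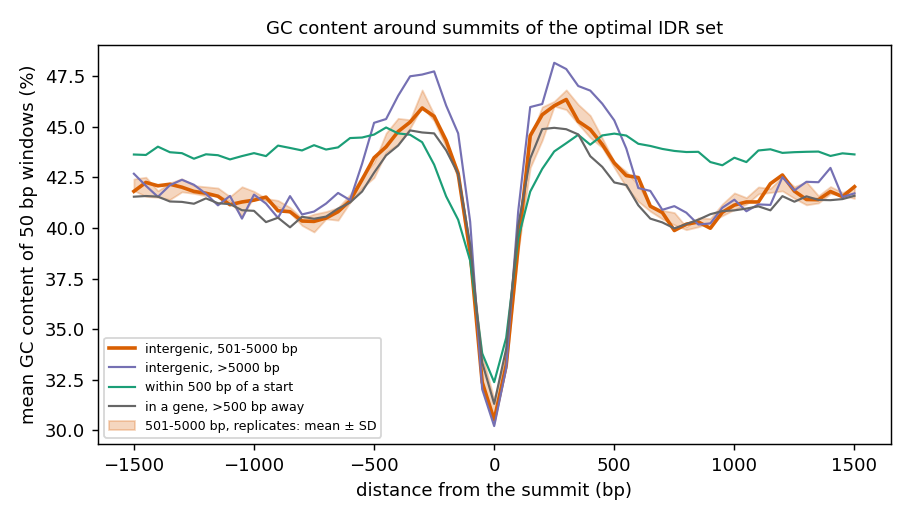
Mean GC content (y axis, %) of 50 bp windows by distance from the summit (x axis, bp) for the 4 classes of IDR peaks, with the mean ± SD over the 3 replicates shaded for near-gene intergenic calls. All classes dip at the summit, to 30.5% for near-gene intergenic peaks, between shoulders of 45.9% and 46.3%.

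Among the 16 consensus sequences, searched on both strands in the same windows, those made of A and T were the more frequent at summits. ATATATAT was in 70 of 769 windows (9.10%), in 3.10% of the flanks and in 3.66% of all windows of the same length in sequence meeting the rule. Its share was 10.1%, 8.29% and 8.99% in replicates 1, 2 and 3. TAATTA was in 21.3% of summit windows, 14.3% of flanks and 15.5% of all such windows, and AAAAAAAA in 18.1%, 13.8% and 11.4%. These 3 can overlap each other in A and T runs, and the part of base content in their shares was not tested. Summits of remote intergenic peaks, with nearly the same GC content, held ATATATAT in 5.56%, and those of gene-body peaks held AAAAAAAA in 22.5%. CAGCTG, an E-box, went the other way, with 4.03% at summits and 7.60% in flanks. CACACACA had 2.73% and 6.35%, and AGGTCA, a nuclear receptor site, 2.99% and 4.87%. TATCGATA, the core of the DNA replication-related element of many housekeeping promoters, was in 0.520% of these windows and in 3.12% of start peaks. TGACGTCA was in 0 of 769, which allows a share of up to 0.390%. A match describes the letters of a window and is not evidence of a bound factor.

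Few of these summits lay in annotated transposable elements, which held 2 of the 769 (0.260%) and 6.69% of the sequence meeting the rule. Simple repeats were not examined by annotation. How reads from repeats were mapped is not given in the sources used here. Intervals of 51 peaks (6.63%) reached into a neighbouring gene body although the summit did not. Flanking genes, shd, E(spl)m2-BFM, CG43389 and lncRNA:CR44713 were named after their values were seen, as were genes beyond the strongest 2 of a list.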

How the data were processed

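ChIP-seq peaks of 3 biological replicates of 1 group were analysed from the deposited dm6 lists: a relaxed list for each replicate (30000, 29322 and 30000 calls), which includes background on purpose as IDR input, and the optimal IDR-thresholded set (6469 peaks). The authors deposited a signal value for each peak (used as deposited) and a significance column on the −log10 scale (not used in any result). Not given in the sources used here were the peak caller, its cut-off, the aligner, the control correction, the IDR threshold and read depth. The dm3 lists were not used here. The IDR set held the same 6469 intervals as the top 6469 calls on pooled reads, so the spread over replicates comes from the strongest 6469 calls of each replicate, classified by the same rule.

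Summits were placed against the Ensembl release 115 annotation without transposable elements (18277 genes on the main chromosomes). A peak was supported by a replicate when the intervals overlapped by at least 1 bp. Densities are calls per Mb of the sequence in which a summit would fall in the class. Gene lists (10 by name, 9 of 394 entries unmatched, and 6 by symbol pattern) and the 16 consensus sequences are given as counts with no test. Ratios and differences were tested over the 3 replicates by a two-sided exact sign-flip permutation test. Wilson intervals and limits for a count of 0 (3 counts) cover counting error only, and the precision of a signal is limited by the number of replicates, since depth is unknown. P-values cover only these 3 replicates, and each is 0.25 whenever the replicates agree in sign, whatever the spread between them. Named genes are those nearest to the 15 strongest peaks, the 6 nearest to the most peaks, the 2 of each list with the strongest peak and the tagged gene. Alternatives changed the distance limits, the annotation, the strength of the set, the matching of replicate calls and the window, or left out 1 replicate. With a replicate left out, all results but support used only peaks among the strongest 6469 calls of both others. The sequence at 1 peak is not reported here. The members, lists and consensus sequences were chosen with earlier results of these data known. The code was tested on simulated data and used Python 3.11.15, numpy 2.4.6, pandas 2.3.3 and scipy 1.17.1.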

Additional observations from a re-analysis of the deposited data

How the results depend on the processing

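The share of peaks in the class follows its limits by construction: it was 15.8% from 250 bp, 8.90% from 1000 bp, 6.83% up to 2000 bp, 15.9% up to 10000 bp, 10.5% with protein-coding genes only, 11.1% with whole intervals outside genes and 10.8% in the stronger of 2 equal parts of the set, by signal. In the same order the upstream share was 78.2%, 69.8%, 77.6%, 66.5%, 78.4% and 75.3%, the stronger part staying close to the value reported. Support by all 3 replicates was 64.8% from 250 bp, 64.9% from 1000 bp, 65.2% with protein-coding genes only, 68.4% in the stronger part, 57.2% with summits within 100 bp, 99.2% at any rank and 29.0% among the strongest 3000 calls. GC content at the summit was 32.6% in the stronger part, 31.1% within 50 bp of it and 38.3% within 200 bp. The signal ratio to gene-body peaks turned to 1.01 with protein-coding genes only and to 1.03 in the stronger part. It turned to 1.02 without replicate 2, where only peaks among the strongest calls of both replicates 1 and 3 were kept. Over the reported set the ratio was below 1 in replicates 1 and 3 too (0.948 and 0.979). The cause of these turns was not tested. Support by both others, with each replicate left out, was 69.8% to 72.3% of the class. The other results without a replicate used only peaks among the strongest calls of both others. They gave member shares of 11.3% to 11.8%, GC content of 32.9% to 33.2% and gene-body ratios of 0.982 to 1.02. These shifts cannot be put down to the replicate left out, since the set of peaks changed too. The other signal ratios kept their direction (to start peaks 0.810 to 0.912, to remote intergenic peaks 1.03 to 1.11), as did the density ratios of upstream to downstream (1.28 to 1.77) and of 3L to the rest (1.65 to 2.13), for which alternatives were chosen after the values were seen and the whole-interval setting was not run. Depth is unknown, so weak peaks could not be judged by reads. No paired analysis was possible because the series holds 1 group.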

Other observations

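The density of near-gene intergenic calls was uneven along arm 3L. In successive bins of 5 Mb it was 96.9 ± 3.11, 47.2 ± 7.64, 108 ± 8.18, 88.5 ± 4.69 and 39.3 ± 4.36 calls per Mb (mean ± SD, n = 3 replicates), and in the last bin, with 0.107 Mb of sequence meeting the rule, no replicate had a call. Of the 12 gaps with at least 5 peaks, 10 were on 3L. The gap between dls and CG13073 held 5 peaks in 11.02 kb, all 5 among the strongest calls of all 3 replicates. The gap between Prx1 and Tollo, a Toll-family receptor gene, held 5 in 27.0 kb, of which 3 were. The gap between lncRNA:CR45937 and lncRNA:CR45936 held 5 in 8.94 kb, of which 4 were. These gaps were named after their values were seen.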
